A study of Mus musculus with 6 samples.

Results

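In the striatum of HuD KO mice, 449 of the 14236 circRNA probes on the array were already bright in WT littermates and were at least 2-fold brighter in HuD KO. They were chosen by the measured values themselves: a level at or above the 75th percentile of the circRNA probes in the mean of the WT arrays, and a mean difference of HuD KO minus WT of 1 or more on the log2 scale. They make up 3.15% of all circRNA probes and 12.7% of the 3539 probes with a WT level of 0 or more. The samples were RNA of adult male C57BL6 mice: 3 HuD KO mice (Elavl4-/-, which lack HuD throughout the body) and 3 WT littermates, with no treatment, 1 array per mouse and 1 colour per array. The deposited labels give no age beyond adult and no replicate link between the groups. Levels are written as the log2 of the corrected spot intensity minus the 75th percentile of the array, so a level of 0 is that percentile and a level of 3 is 8-fold above it. Because the choice used the contrast of HuD KO with WT, the differences are described here and not tested.

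A circRNA forms when the spliceosome joins the end of an exon, the splice donor, back to the start of the same or an upstream exon, the acceptor. The resulting ring has no free end and resists RNase R, which degrades linear transcripts and was applied to these samples before labelling. Brain tissue is rich in circRNAs, many of them made from genes of the synapse. HuD, the product of Elavl4, is a neuronal RNA-binding protein of the Hu family that binds AU-rich and U-rich RNA and is known mainly for stabilizing mRNAs. The array probes a circRNA at its back-splice junction. Linear RNA of the same gene lacks the full probed sequence but can hold the stretch on either side of the junction.

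A host gene, class and position could be given for 338 of the 449 circRNAs, from the tables of changed circRNAs or from a list of circRNAs bound by HuD, and the other 111 are known by probe ID only. The annotated circRNAs came from 238 host genes on 20 chromosomes. The deposited tables do not state a genome build, and the scanner files name an older mouse build for the array design. Of 271 exonic circRNAs whose host was found in the RefSeq gene table of GRCm38.p6, all 271 lay inside the span of that gene. No circRNA of Elavl4 was annotated, so the knockout itself was not checked on these arrays. Each of the 449 was well above background wherever it was read, on 6 of 6 arrays, and 0 were saturated.

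The junction sequences show which RNA each probe reports. Each listed sequence is 60 bases long. Over all annotated circRNAs, 77 pairs of 1 host shared the listed donor end and a run of at least 15 letters, and in 74 of them the shared run opened a sequence. Another 90 pairs shared the acceptor end, and in 88 the shared run closed a sequence. The letters therefore run in the sense of the transcript, from the donor side across the junction to the acceptor side. The first set shows junctions of the hosts with the largest differences measured on all arrays, with mmu_circRNA_013636, whose own difference is smaller, added for the donor it shares. The Pgm2l1 circRNAs lie at chr7:100250291-100255617 and chr7:100266664-100268306 (+ strand) and share no end. The Mkln1 circRNAs, at chr6:31418930-31433131 and chr6:31418929-31433132 (+), differ by 1 base at each end. The Trpc6 circRNAs, at chr9:8634046-8658377 and chr9:8643505-8658377 (+), share their donor. Capitals mark the run of letters common to the 2 sequences of a host, 49 letters for Mkln1 and 15 for Trpc6.
mmu_circRNA_41990 (Pgm2l1): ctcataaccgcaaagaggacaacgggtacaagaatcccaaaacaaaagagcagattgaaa
mmu_circRNA_41991 (Pgm2l1): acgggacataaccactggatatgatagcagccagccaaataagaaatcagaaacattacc
mmu_circRNA_009396 (Mkln1): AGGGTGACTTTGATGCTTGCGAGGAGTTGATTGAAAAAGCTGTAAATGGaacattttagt
mmu_circRNA_19411 (Mkln1): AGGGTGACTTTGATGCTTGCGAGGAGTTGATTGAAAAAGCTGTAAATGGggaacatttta
mmu_circRNA_013636 (Trpc6): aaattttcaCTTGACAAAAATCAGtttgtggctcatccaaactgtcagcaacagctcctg
mmu_circRNA_43742 (Trpc6): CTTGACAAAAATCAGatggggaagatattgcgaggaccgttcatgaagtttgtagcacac

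The second set shows how circRNAs of 1 host combine a few splice sites. The 3 HuD-bound circRNAs of Anks1b, on chromosome 10 (+), use 2 acceptors and 2 donors. mmu_circRNA_002573 (90895098 to 90948672) and mmu_circRNA_005340 (90914695 to 90948672) share the donor, and mmu_circRNA_005340 and mmu_circRNA_010003 (90914695 to 90923602) share the acceptor. Capitals mark the donor side: the run of 29 letters that the first pair shares and, in mmu_circRNA_010003, the letters ahead of the run of 31 letters it shares with mmu_circRNA_005340. The 2 runs meet at base 30 of mmu_circRNA_005340, counted from its 5′ end, a base that either side can claim. Another 3 circRNAs, of Crebrf on chromosome 17 (+), end at the same donor, 26743131, and start at 26739540, 26736813 and 26739542. Capitals there mark the donor run of 49 letters common to all 3.
mmu_circRNA_002573 (Anks1b): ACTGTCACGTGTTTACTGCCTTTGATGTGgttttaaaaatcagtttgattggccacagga
mmu_circRNA_005340 (Anks1b): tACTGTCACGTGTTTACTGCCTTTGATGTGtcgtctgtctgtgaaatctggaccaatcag
mmu_circRNA_010003 (Anks1b): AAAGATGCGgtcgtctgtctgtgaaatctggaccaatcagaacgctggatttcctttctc
mmu_circRNA_19183 (Crebrf): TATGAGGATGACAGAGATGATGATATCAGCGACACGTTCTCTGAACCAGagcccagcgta
mmu_circRNA_19182 (Crebrf): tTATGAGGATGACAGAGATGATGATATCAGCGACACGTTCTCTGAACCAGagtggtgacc
mmu_circRNA_004122 (Crebrf): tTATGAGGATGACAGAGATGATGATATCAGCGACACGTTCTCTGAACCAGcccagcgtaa

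Before the values, 2 features of the arrays matter. The HuD KO arrays came from 2 scans, 1 shared by HuD KO 1 and 2 and 1 of HuD KO 3, and all WT arrays shared another, so scan and genotype cannot be told apart. In 5 of the 449 circRNAs the spots of HuD KO 1 and 2 were flagged as outliers and left out, so their HuD KO level rests on HuD KO 3 alone. These are ASCRP4003982, ASCRP4004121, ASCRP4006766, ASCRP4006767 and ASCRP4007459, none of which has a listed host. They include the largest difference of all, 3.34 for ASCRP4006767, and their differences ran from 2.10 to 3.34. Their flagged spots read between 1.64 below and 0.11 above the WT mean, and with these spots kept, 0 of the 5 would have been chosen. The other 444 circRNAs had values on all 6 arrays.

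In all 444, the lowest of the HuD KO arrays read above the highest of the WT arrays. The same held for 28% of all circRNA probes with 6 values and for 40.5% of those with a WT level of 0 or more. The limit of 1 on the difference was met by 8.91% of all circRNA probes with 6 values and by 12.8% of those with a WT level of 0 or more. As the choice used this contrast, these counts have no further reading. The difference over the 449 circRNAs had a median of 1.30 on the log2 scale (2.47-fold), with quartiles of 1.13 and 1.54. The median SD between replicates was 0.16 in WT and 0.21 in HuD KO. The gap between the lowest HuD KO array and the highest WT array ranged from 0.06 to 2.36, with a median of 0.89. Most of the differences were moderate: 318 of the 449 were under 1.5, and 23 of the 444 were 2 or more. Spearman's correlation of the difference with the WT level was 0.03 over the 444 circRNAs, which share arrays and are not independent. The choice set a limit on both values, and the WT level enters the difference, so this coefficient has no further reading.

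**Figure D1:**
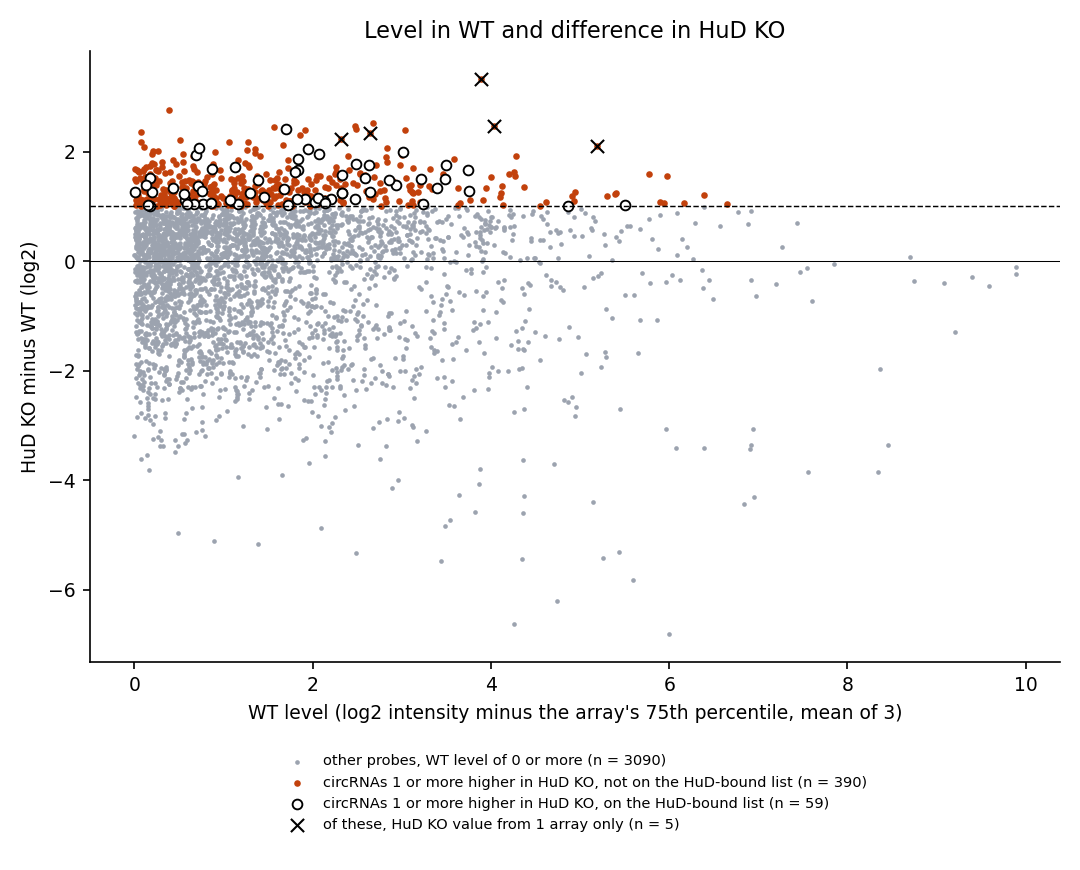
WT level (x axis, mean of 3 arrays) against the difference of HuD KO minus WT (y axis, log2) for the 3539 circRNA probes with a WT level of 0 or more; orange points and open circles are the 449 chosen circRNAs, open circles the 59 on the HuD-bound list, crosses the 5 with a HuD KO value from HuD KO 3 only, and the dashed line is the limit of 1. The chosen circRNAs are spread over WT levels from 0.00 to 6.65, and most of their differences lie below 1.5.

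The difference was seen on each HuD KO array and was smaller on HuD KO 3. Against the WT mean of the same probe, the median was 1.40 on HuD KO 1, 1.39 on HuD KO 2 and 1.17 on HuD KO 3. For the other 3090 probes with a WT level of 0 or more these medians were -0.09, -0.08 and -0.01. The rule sorted the probes by this difference, so the contrast between the 2 sets follows from the choice. A value of 1 or more was reached by 92.6% of the chosen circRNAs on HuD KO 1, by 94.8% on HuD KO 2 and by 69.0% on HuD KO 3. In 333 of the 444 circRNAs HuD KO 3 was below the mean of HuD KO 1 and 2, and 286 of the 444 reached 1 both in that mean and on HuD KO 3.

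**Figure D2:**
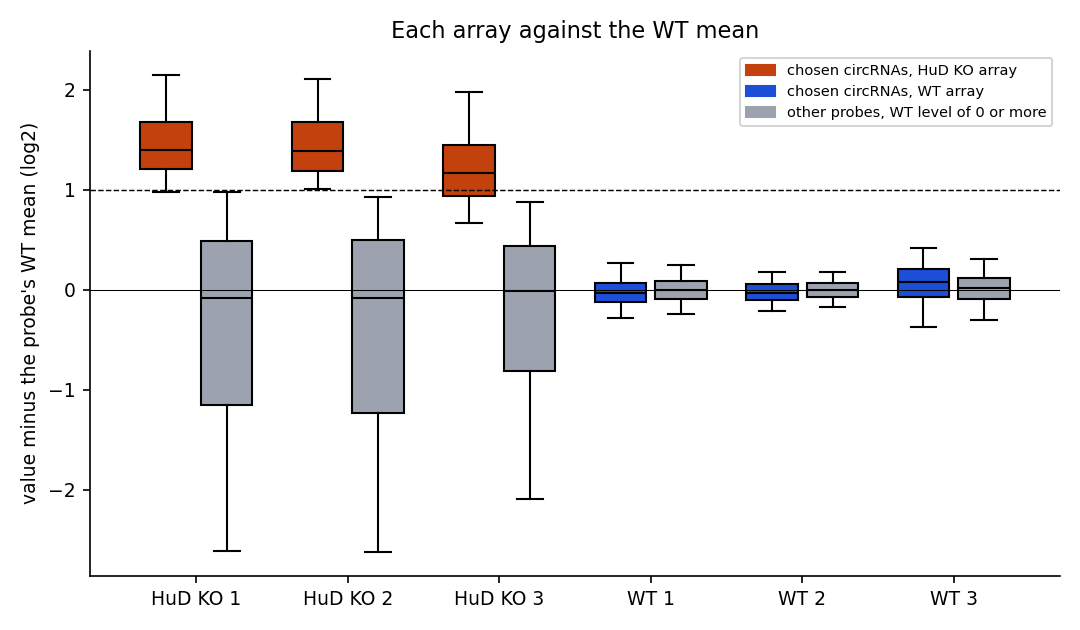
Value of each array minus the WT mean of the same probe (y axis, log2) for the 449 chosen circRNAs (orange on HuD KO arrays, blue on WT arrays) and for the other 3090 probes with a WT level of 0 or more (grey); boxes give quartiles, lines in boxes the median and whiskers the range from the lowest to the highest after leaving out the outer 5% on each side. The chosen circRNAs have medians of 1.40, 1.39 and 1.17 on the 3 HuD KO arrays.

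The choice was also made anew without each array, and the array left out was then read. Without HuD KO 1, 416 circRNAs were chosen, and of the 411 measured on it 410 lay above all WT arrays, with a median difference of 1.40. Without HuD KO 2, 432 of 440 lay above all WT arrays, with a median of 1.39. Without HuD KO 3, 516 were chosen, 508 of them lay above all WT arrays there, the median was 1.04, and 286 (55.4%) reached 1. Among the other probes with a WT level of 0 or more, 41.2% to 41.3% lay above all WT arrays on the array left out. With a WT array left out, the mean of HuD KO was above it by a median of 1.32 for WT 1, 1.34 for WT 2 and 1.23 for WT 3. These readings share the arrays of the other group with the choice.

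All 449 circRNAs were higher in HuD KO under the main scaling and under each of the other 5 scalings of these intensities. The other scalings were array median, quantile normalization, none, the percentile over all spots that are not typed as controls, and circRNA control probes. All but quantile normalization differ from the main scaling only by 1 shift per array. The choice asked for a difference of 1 or more, so under these the shared sign follows from the choice and the size of the shift. The size of the difference moved with the scaling. The median of the 449 was 1.5 after median scaling, 1.11 after quantile normalization, 1.83 with no scaling and 0.53 with the 14 circRNA control probes as the scale. With that last scaling only 54 of the 449 met the limits. The median over all circRNA probes moved too, from -0.17 in the main values to 0.14 after quantile normalization, 0.36 with no scaling and -0.94 with the control probes. Relative to that median, the chosen circRNAs were higher by 1.47 in the main values and by 0.98 after quantile normalization.

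The largest difference measured on all arrays belonged to Pgm2l1, an enzyme that makes glucose-1,6-bisphosphate and is abundant in brain. mmu_circRNA_41990 read 0.28, 0.23 and 0.64 in WT and 3.38, 3.07 and 3.00 in HuD KO. Its mean went from 0.38 ± 0.23 (SD, n = 3) to 3.15 ± 0.20 (SD, n = 3), a difference of 2.77 or 6.81-fold. The second Pgm2l1 circRNA, mmu_circRNA_41991, started much higher, at 2.35, 2.37 and 3.32 in WT, and read 5.42, 4.98 and 5.21 in HuD KO. Its difference was 2.52, and the highest WT array was still 1.66 below the lowest HuD KO array. The sequences of these circRNAs share no end, so 2 separate junctions of the gene were higher by a similar amount.

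The near-identical Mkln1 junctions gave nearly the same readings. Mkln1 encodes muskelin, a subunit of a large ubiquitin ligase complex. mmu_circRNA_009396 read 2.11, 2.36 and 2.96 in WT and 5.34, 5.13 and 4.37 in HuD KO, and mmu_circRNA_19411 read 2.20, 2.37 and 2.90 against 5.24, 5.05 and 4.45. The differences were 2.47 and 2.42. In both, HuD KO 3 was the lowest HuD KO array and WT 3 the highest WT array. Since 49 of 60 letters are common, these 2 probes are not independent of each other.

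Trpc6, a cation channel opened by receptor signalling through diacylglycerol, had 2 circRNAs with a common donor. mmu_circRNA_43742 read 1.28, 1.39 and 2.04 in WT and 3.96, 3.97 and 4.14 in HuD KO, a difference of 2.45. mmu_circRNA_013636 read 2.20, 2.40 and 2.60 against 4.21, 4.24 and 4.49, a difference of 1.92. Here HuD KO 3 was the highest HuD KO array, unlike for Mkln1.

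The other large differences came from regulators of several kinds. Tulp4, a tubby-like protein, had mmu_circRNA_19175 and mmu_circRNA_008009, with differences of 2.41 and 2.39 from WT levels of 1.70 and 1.91. Both begin and end within a few bases of a further circRNA of the gene, mmu_circRNA_30196, so by listed position the 3 are nearly 1 circle. The sequences of mmu_circRNA_19175 and mmu_circRNA_008009 share a run of 48 letters, but mmu_circRNA_30196 shares only 11 with either. Of the 3, only mmu_circRNA_19175 and mmu_circRNA_30196 are on the HuD-bound list. Cdyl, a chromodomain protein that binds methylated histone H3 and acts as a corepressor, had mmu_circRNA_19091, which read 2.90, 2.81 and 3.39 in WT and 6.13, 5.64 and 4.53 in HuD KO. Its difference was 2.40, with an SD of 0.82 between HuD KO arrays, among the widest spreads of the circRNAs named here. Plekha5, a pleckstrin homology domain protein, had mmu_circRNA_41006 with a difference of 2.30.

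mmu_circRNA_42369 read 0.02, -0.06 and 0.25 in WT and 2.37, 2.77 and 2.15 in HuD KO, a difference of 2.36. The table lists it as an intronic circRNA of Fgfr2, a receptor of fibroblast growth factors. Its position, chr7:130394474-130516168, lies outside the GRCm38 span of Fgfr2 (130162451 to 130266808) and inside that of Ate1 (130391493 to 130520619), an arginine transferase that marks proteins for degradation. Ate1 itself had 3 circRNAs among the 449, with differences from 1.27 to 1.81. In all, 6 of 330 circRNAs lay outside the RefSeq span of their listed host.

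**Figure D3:**
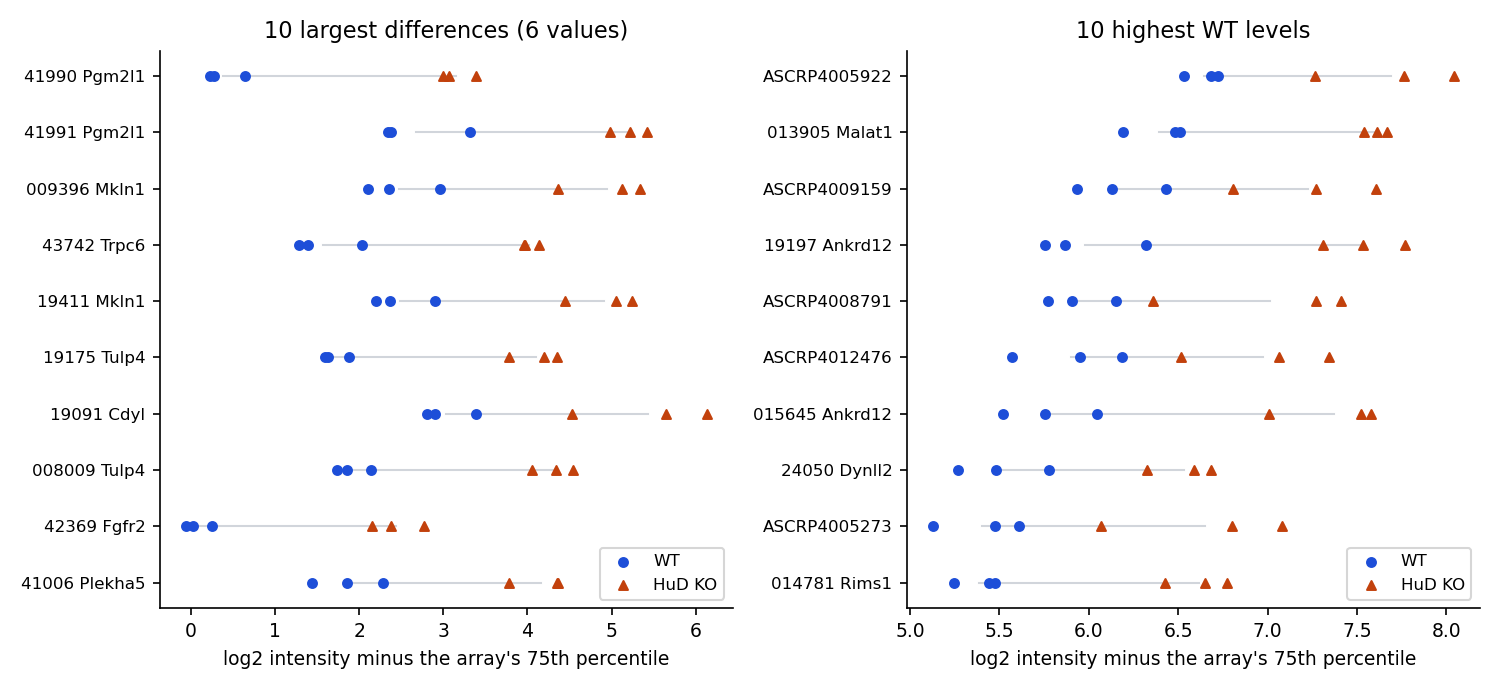
Level on each array (x axis, log2 intensity minus the array's 75th percentile) for the 10 circRNAs with the largest difference among those with 6 values (left) and the 10 with the highest WT level (right); blue circles are WT arrays, orange triangles HuD KO arrays, and grey lines join the group means. In all 20 the 3 triangles lie to the right of the 3 circles, by more in the left panel, whose circRNAs were picked for large differences.

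The 10 circRNAs with the highest WT levels had differences from 1.02 to 1.59. Those described above were picked for large differences, so the 2 sets are not a comparison by WT level. The brightest of the 449 in WT was ASCRP4005922, without a listed host, at 6.53, 6.72 and 6.68 in WT and 8.04, 7.76 and 7.27 in HuD KO, a difference of 1.04. Next came mmu_circRNA_013905 of Malat1, a nuclear long non-coding RNA, which read 6.51, 6.48 and 6.19 in WT and 7.67, 7.61 and 7.54 in HuD KO. Its difference was 1.21 (2.32-fold). The Ankrd12 circRNAs mmu_circRNA_19197 and mmu_circRNA_015645, whose listed ends differ by 5 bases on 1 side only, had WT levels of 5.98 and 5.78 and differences of 1.56 and 1.59. Ankrd12 is an ankyrin repeat protein that works with nuclear receptor coregulators. Dynll2, a light chain of the dynein and myosin V motors, had mmu_circRNA_24050 with a WT level of 5.51 and a difference of 1.02. Rims1, a scaffold of the presynaptic active zone, had mmu_circRNA_014781 with 5.39 and 1.23. The remaining 4 of the 10 brightest had no listed host.

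The Malat1 and Dynll2 junctions are shown as the brightest annotated circRNA and the brightest HuD-bound circRNA of the 449. They lie at chr19:5798105-5798224 and chr11:87981294-87984010, both on the - strand, and nothing in them is marked.
mmu_circRNA_013905 (Malat1): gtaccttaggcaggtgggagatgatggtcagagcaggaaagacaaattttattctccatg
mmu_circRNA_24050 (Dynll2): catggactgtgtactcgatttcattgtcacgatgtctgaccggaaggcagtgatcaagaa

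The share of probes that met the limit on the difference changed little with the WT level over most of the range. It was 11.3% of 1649 probes at a WT level of 0 to 1, 13.9% at 1 to 2, 14.2% at 2 to 3, 14.8% at 3 to 4, 14.3% at 4 to 6 and 3 of 48 probes above 6. Among the 100 brightest probes, 12 were chosen circRNAs when ranked by WT and 31 when ranked by HuD KO. The first count is near the 12.7% of all probes with a WT level of 0 or more. The second is raised by the choice, which asked for a higher HuD KO mean. The limits cut through a continuous range. The members nearest the limit on the difference were ASCRP4004567 (1.0025), ASCRP4005105 (1.0060) and ASCRP4001129 (1.0073), and just outside were ASCRP4008140 (0.9997), ASCRP4008877 (0.9994) and ASCRP4014050 (0.9973). Within 0.1 of that limit, 85 circRNAs lay inside and 102 probes outside. At the limit on the WT level, circRNAs of Rab6a and Btaf1 were just inside with WT levels of 0.00 to 0.01, and ASCRP4000951 and circRNAs of Sdccag8 and Nhlrc2 just outside with -0.00 to -0.01.

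Members of 1 host shared junction sequence often enough that the 449 are not 449 independent circles. In 19 pairs of members both listed ends lay within 10 bases of each other, and merging them left 431 circles. The differences within these 19 pairs were 0.06 apart in the median and 0.47 apart at most (Cdyl), while their WT levels were 0.22 apart in the median and up to 1.32 apart (Tulp4). In 16 of the 19 pairs the table called the circRNAs by different classes, 1 of them exonic and the other intronic or sense overlapping. Of the 47 sense overlapping members 10, and of the 18 intronic members 7, had both ends within 10 bases of a listed exonic circRNA. Among all annotated circRNAs there were 38 such pairs, and 1 of them moved apart: for Nbea, mmu_circRNA_19281 had a difference of -1.99 from a WT level of 2.32 and mmu_circRNA_005357 one of 1.04 from -0.50, although their sequences share a run of 50 letters. Neither is among the 449.

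**Figure D4:**
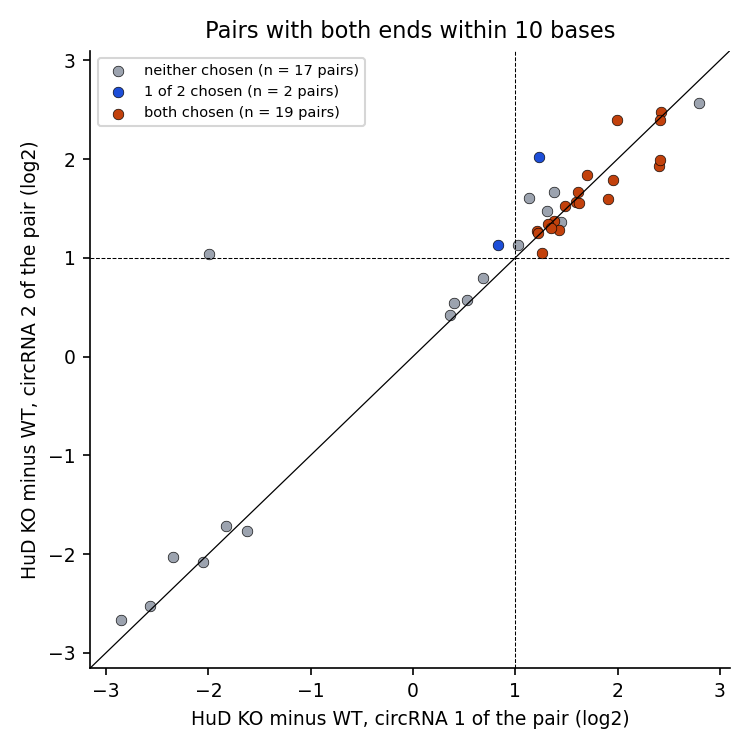
Difference of HuD KO minus WT (log2) for the 2 circRNAs of each of 38 pairs whose listed starts and ends both lie within 10 bases; orange pairs are both among the 449, blue pairs hold 1 of them and grey pairs none, the diagonal marks equal differences and dashed lines the limit of 1. The 19 orange pairs lie near the diagonal, with a median gap of 0.06, and 1 grey pair (Nbea) lies far from it.

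Of the 238 host genes, 170 had 1 member, 47 had 2 and 21 had 3 or more, with near-identical circRNAs counted separately. The hosts with 5 were S100pbp, a nuclear protein that binds S100P, Ttc3, a ubiquitin ligase, and Crebrf, a regulator of CREB3 transcription factors. Each includes near-identical circRNAs, so none of these hosts has 5 separate circles. They are mmu_circRNA_19172 with mmu_circRNA_015661 and mmu_circRNA_19173 with mmu_circRNA_010404 (Ttc3), mmu_circRNA_016699 with mmu_circRNA_19336 (S100pbp), and mmu_circRNA_19183 with mmu_circRNA_004122 (Crebrf). The 5 Ttc3 circRNAs had differences of 1.34 to 1.91 and the 5 S100pbp circRNAs 1.30 to 1.62. For Crebrf, the 3 circRNAs with the common donor run had WT levels of 4.25, 4.21 and 4.27 and differences of 1.62, 1.59 and 1.56. As 49 of 60 letters are common to these 3, their probes are not independent of each other. The other 2 Crebrf circRNAs were dimmer, with WT levels of 2.76 and 0.70 and differences of 1.29 and 1.63.

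Rtn4, the gene of the neurite growth inhibitor Nogo, had 4 circRNAs built from a few sites. mmu_circRNA_23123 joined a donor it shared with mmu_circRNA_23124 to an acceptor it shared with mmu_circRNA_014561. Their WT levels were 2.59, 1.06 and 1.42, and their differences 1.48, 2.17 and 1.28. The 4 circRNAs of Atrnl1, an attractin-like membrane protein, covered WT levels from 1.10 to 4.13 with differences of only 1.27 to 1.38. Homer1, a scaffold of the postsynaptic density, also had 4, with differences of 1.05 to 1.48 and 3 of them HuD-bound. In Ate1, Ccny, Erc2, Kcnt2, Lin54, Mlip, Ppp1cb, Rmst and Whsc1 (Nsd2 in RefSeq), with 3 members each, differences ran from 1.22 to 2.06. Kcnt2, a sodium-activated potassium channel, was among the most even of them, with 1.72, 1.76 and 1.84.

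A higher level was not shared by all circRNAs of these hosts. The 238 hosts had 198 further annotated circRNAs, of which 114 were 1 or more higher with a WT level below 0, 33 were 1 or more lower and 51 lay between. Hosts are known only through tables of changed or bound circRNAs, so these counts leave out circRNAs of the hosts that changed little. Of the further annotated circRNAs, 57 had a WT level of 0 or more. Among those 57, 25 circRNAs of 23 hosts were 1 or more lower in HuD KO, with a median difference of -1.75. Over all annotated circRNAs with a host at that level, members included, 710 of 1341 were 1 or more lower. A lower circRNA is thus common in the annotation and not particular to these hosts. Of these 25, 2 are listed as antisense (Kat6b and Malat1), and mmu_circRNA_42400, listed under Fgfr2, lies far outside that gene and outside Ate1, so these 3 are not contrasts within 1 host transcript. Fam135a, a protein with a predicted lipase domain, gave the widest contrast. mmu_circRNA_19765 (24020674 to 24086611 on chromosome 1) read 4.51, 4.40 and 3.87 in WT and -3.22, -2.80 and -1.07 in HuD KO. mmu_circRNA_19773, which lies within it (24044113 to 24067978), read 1.34, 1.19 and 1.32 in WT and 2.87, 3.16 and 2.95 in HuD KO. The groups do not overlap for either circRNA, and the directions are opposite.

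Similar contrasts were found in Foxp1, a transcription factor of striatal projection neurons, and Trim37, a ubiquitin ligase of peroxisome and centrosome biology. mmu_circRNA_40607 of Foxp1 read 0.97, 0.83 and 0.49 in WT and 1.74, 1.66 and 2.71 in HuD KO, while mmu_circRNA_40615 read 4.89, 4.67 and 4.56 in WT and 1.09, 1.28 and 0.63 in HuD KO. The groups of 3 do not overlap for either, and both are on the HuD-bound list. For Trim37, mmu_circRNA_24020 and mmu_circRNA_24010 had differences of 1.12 and 1.1 and mmu_circRNA_24012 a difference of -4.29, and of these mmu_circRNA_24020 and mmu_circRNA_24012 are on the list. Magi1, a synaptic and junctional scaffold, had mmu_circRNA_40577 with a difference of 1.05 and mmu_circRNA_018247 with -2.53.

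Of the 449 circRNAs, 59 (13.1%), from 48 host genes, are on the list that the study obtained by immunoprecipitating tagged HuD from the striatum of other mice, in which a Camk2a promoter drives HuD and several mice were pooled per assay. The share was 9.22% among the 3090 other probes with a WT level of 0 or more and 4.62% of all circRNA probes. The difference in share varied with WT level: 9.68% against 8.20% at a WT level of 0 to 1, 11.8% against 10.2% at 1 to 2, 22.2% against 48 of 436 probes at 2 to 3 and 15.6% against 9.18% at 3 or more. The part of brightness in the list was not tested. HuD-bound and other members had median differences of 1.28 and 1.30. Seen from the list, 344 HuD-bound circRNAs had a WT level of 0 or more, and 59 of them (17.2%) met the limit, against 12.2% of the other probes at that level. Higher by any amount in the main scaling were 263 of the 344 (76.5%) and 52.5% of the other probes. A difference of -1 or less was found in 17 of the 344 (4.94%) and in 24.9% of the other probes. These differences in share were not tested.

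Among the HuD-bound circRNAs with the largest differences, Tulp4 and Ccny gave 2 each. Beside mmu_circRNA_19175, Tulp4 had its near-identical neighbour mmu_circRNA_30196, which read 2.76, 2.94 and 3.35 in WT and 4.93, 5.21 and 4.89 in HuD KO. Ppp1cb, a catalytic subunit of protein phosphatase 1, had mmu_circRNA_38398, which read 0.71, 0.57 and 0.88 in WT and 3.33, 3.26 and 1.77 in HuD KO. Its difference of 2.06 rested on HuD KO 1 and 2 more than on HuD KO 3. Ccny, a membrane-anchored cyclin found at synapses, had mmu_circRNA_31249 and mmu_circRNA_31240, with WT levels of 1.94 and 2.07 and differences of 2.04 and 1.96.

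Agtpbp1, an enzyme that trims glutamates from tubulin, had mmu_circRNA_26433, at 0.56, 0.76 and 0.76 in WT and 2.60, 2.79 and 2.51 in HuD KO. Camk2a, the kinase of synaptic plasticity, had mmu_circRNA_31794 with a difference of 1.78. Erc2, an active zone protein, had mmu_circRNA_016816 with 1.75, and Pcmtd1, a methyltransferase domain protein, mmu_circRNA_19595 with 1.75.

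HuD binds AU-rich stretches, so the letters ATTTA and TTTTT were searched in the 60-base junction sequences on both strands. ATTTA was present in 14 of the 338 annotated members (4.14%) and in 4.16% of all 3056 annotated circRNAs. TTTTT was present in 6.80% and 5.14%. The reverse complements TAAAT and AAAAA were present in 5.03% and 10.1% of members, against 3.50% and 9.36% of all. The comparison set matters here: among the 1033 other annotated circRNAs with a WT level of 0 or more, ATTTA was present in 31 (3.00%), TTTTT in 4.36%, TAAAT in 2.61% and AAAAA in 5.52%. Of the 59 HuD-bound members, 5 (8.47%) held ATTTA, against 12 of the 285 other HuD-bound circRNAs with a WT level of 0 or more (4.21%), and 0 held TAAAT. These windows are a small part of each circRNA, so the letters say nothing of the rest of the ring. The 5 junctions are printed with the first ATTTA in capitals. They lie at chr13:59473687-59508056 (-), chr1:7120193-7120615 (+), chr5:32480689-32486032 (+), chr1:22373343-22538623 (-) and chr11:87145463-87209887 (+), in the order shown.
mmu_circRNA_26433 (Agtpbp1): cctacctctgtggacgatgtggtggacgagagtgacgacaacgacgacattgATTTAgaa
mmu_circRNA_19595 (Pcmtd1): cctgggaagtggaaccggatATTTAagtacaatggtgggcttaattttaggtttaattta
mmu_circRNA_38400 (Ppp1cb): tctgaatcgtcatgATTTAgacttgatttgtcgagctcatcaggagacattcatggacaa
mmu_circRNA_19745 (Rims1): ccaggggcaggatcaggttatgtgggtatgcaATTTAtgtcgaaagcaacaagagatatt
mmu_circRNA_24020 (Trim37): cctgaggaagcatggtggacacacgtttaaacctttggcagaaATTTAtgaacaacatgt

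The junctions of members and of bright circRNAs that were lower differed in base makeup. The median junction of a member held 30% A, 20.0% C and 43.3% G plus C. The 760 circRNAs of the deposited lower table with a WT level of 0 or more had medians of 25.0% A, 28.3% C and 48.3% G plus C. The 285 HuD-bound circRNAs with a WT level of 0 or more that are not members, a set that leaves out those 1 or more higher, had 30% A, 21.7% C and 45.0% G plus C. Over all 3056 annotated circRNAs the medians were 30% A, 21.7% C and 45.0% G plus C, closer to the members than to the lower set. The 818 circRNAs of the deposited higher table with a WT level below 0 had 31.7% A, 18.3% C and 43.3% G plus C. The makeup of the members was therefore not particular to them. The part of base composition in the differences was not tested.

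Exonic circRNAs made up 80.5% of the 338 annotated members, against 77.5% of the 1033 other annotated circRNAs with a WT level of 0 or more. Sense overlapping circRNAs made up 13.9% and 13.2%, and intronic ones 5.33% and 4.36%. There was 0 antisense and 1 intergenic circRNA among the members. The members covered longer stretches of the genome, with a median span from listed start to end of 15355.5 bases against 9160 for the other annotated circRNAs at that level. A span of 50 kb or more was found in 16.6% of members and 8.13% of the others, and a span under 2 kb in 14.5% and 20.7%. Annotation exists only for changed or bound circRNAs, and 760 of the 1033 others come from the lower table, so these are contrasts with mostly lower circRNAs. The 818 circRNAs of the deposited higher table with a WT level below 0 had a median span of 17798 bases. Of them, 15.3% spanned 50 kb or more and 10.6% under 2 kb, so long spans were not particular to the members. On chromosomes, the counts ran from 28 members on chromosomes 5 and 9 to 6 on chromosome 8.

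The host genes were grouped by known function with 15 lists, which held 187 of the 336 members with a host symbol. Over all annotated circRNAs with a host and a WT level of 0 or more, 25.1% were members and 710 of 1341 were 1 or more lower. The lists overlap, and their shares depend on which circRNAs are annotated.

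**Figure D5:**
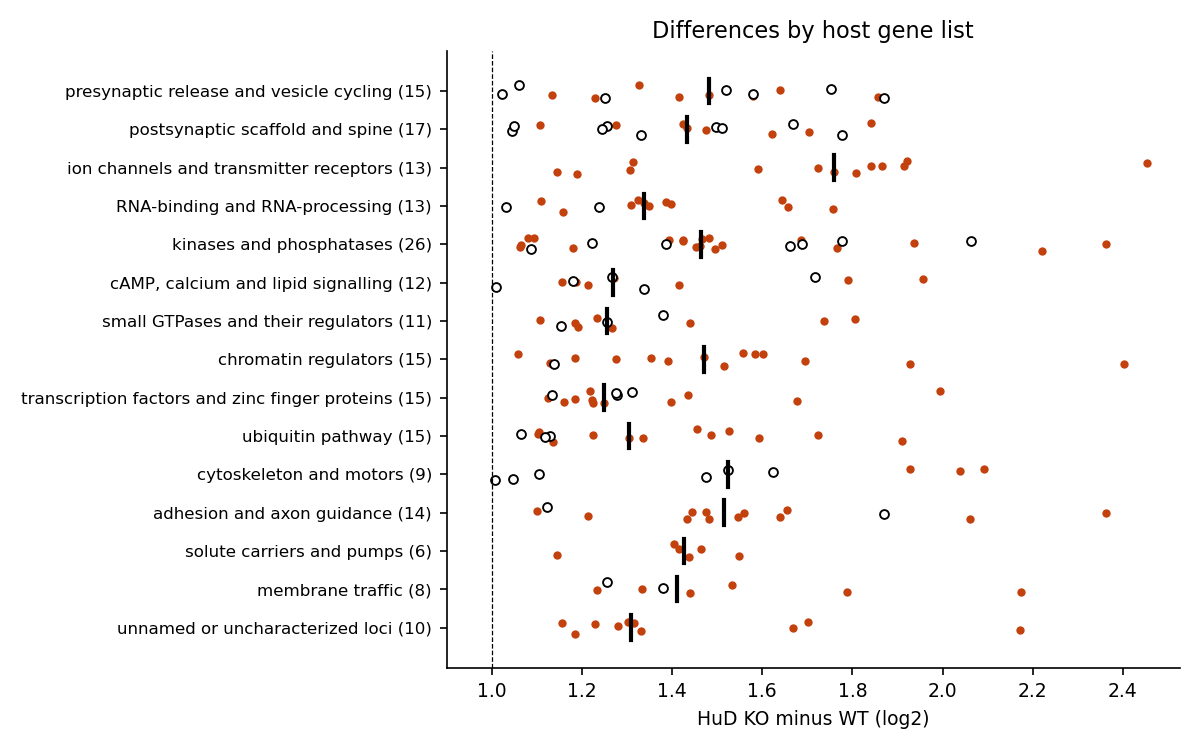
Difference of HuD KO minus WT (x axis, log2) of the members in each of 15 host gene lists, with the number of members in parentheses; open circles are on the HuD-bound list, black bars mark medians, the dashed line is the limit of 1, and the height within a row has no meaning. Presynaptic genes have 15 members, postsynaptic genes 17 and kinases and phosphatases 26, and ion channels have the highest median, 1.76.

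Synaptic hosts gave some of the larger shares. Of 33 annotated circRNAs with a WT level of 0 or more from genes of presynaptic release and the vesicle cycle, 15 (45.5%) were members and 5 were 1 or more lower. They came from 9 genes, and 7 were HuD-bound. Besides Rims1, the highest HuD KO levels were those of Erc2, whose mmu_circRNA_016816 read 2.81, 2.72 and 2.35 in WT and 4.68, 4.54 and 3.92 in HuD KO. mmu_circRNA_27305 of the same gene had a difference of 1.58. Further hosts of this list included Aak1, Dnm3, Snap91, Stx1a, Sv2b and Syt1.

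Of 46 circRNAs from genes of the postsynaptic scaffold and spine, 17 (37.0%) were members, 9 of them HuD-bound, and 14 were 1 or more lower. Anks1b, a protein that shuttles between the postsynaptic density and the nucleus, had the 3 highest HuD KO levels. The circRNA that combines the shared donor and acceptor, mmu_circRNA_005340, read 3.85, 3.71 and 3.66 in WT and 5.87, 5.61 and 4.74 in HuD KO. mmu_circRNA_002573 and mmu_circRNA_010003, which each share 1 of its sites, had differences of 1.511 and 1.497 against its 1.669. In all 3 the HuD KO 3 array was the lowest of its group and still above every WT array.

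Ion channels and transmitter receptors had 13 members of 42, and their median difference of 1.76 was above the median of 1.39 over all members with a host. Kcnt2 gave 3 of the 13 and Trpc6 gave 2. None of the 13 was HuD-bound, and 21 of the 42 were 1 or more lower. Itpr2, a calcium release channel of the endoplasmic reticulum, had mmu_circRNA_41059, at 3.42, 3.61 and 3.72 in WT and 5.37, 5.12 and 5.86 in HuD KO. Kcnt2 had mmu_circRNA_016043, at 2.93, 2.90 and 3.11 in WT and 4.80, 4.69 and 4.73 in HuD KO. Cacna2d1, Gabra4, Kcnh5, Dpp10, Ano3 and Kcnab1 were the other hosts beside Trpc6.

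Kinases and phosphatases were the largest group, with 26 members of 68 (38.2%) from 19 genes, Fgfr2 counted as listed, and 16 of the 68 were 1 or more lower. Stk32c, a serine/threonine kinase of brain, had mmu_circRNA_42458 and mmu_circRNA_42459, which share their donor, with WT levels of 3.00 and 3.21 and differences of 1.94 and 1.39. Stk39, a kinase that controls chloride cotransporters, had mmu_circRNA_017329 with 2.71 and 1.77. In cAMP, calcium and lipid signalling 12 of 38 were members and 11 were 1 or more lower. The diacylglycerol kinases Dgki and Dgkb led them, with mmu_circRNA_006949 at 3.40 in WT and a difference of 1.34 and mmu_circRNA_24962 at 2.36 and 1.42, followed by mmu_circRNA_016423 of Plcl2, a phospholipase C-like protein, at 1.24 and 1.79.

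Genes of small GTPases and their regulators had 11 members of 43 (25.6%) and 17 that were 1 or more lower, with mmu_circRNA_003169 of Arhgap10, a GTPase-activating protein, at a WT level of 2.84 and a difference of 1.81. mmu_circRNA_017649 of Agap1, an Arf GTPase-activating protein, and mmu_circRNA_19074 of Sipa1l1, a Rap GTPase-activating protein of dendritic spines, had differences of 1.15 and 1.11. Cytoskeleton and motor genes had 9 members of 47, of which 6 were HuD-bound, and 23 that were 1 or more lower. Dpysl2, a tubulin-binding protein of axon growth, had mmu_circRNA_27737, at 4.75, 4.81 and 5.03 in WT and 6.13, 5.88 and 5.60 in HuD KO, and mmu_circRNA_27740 with a difference of 1.48. Actr2, a subunit of the actin-nucleating Arp2/3 complex, had mmu_circRNA_22928 with 1.63.

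Chromatin regulators had 15 members of 48 (31.2%), and 28 were 1 or more lower. The second Cdyl circRNA, mmu_circRNA_003780, which is near-identical to mmu_circRNA_19091, read 4.17, 4.04 and 4.63 in WT and 6.63, 6.26 and 5.75 in HuD KO, and mmu_circRNA_003195 of Whsc1, a histone H3 methyltransferase, 4.28, 4.39 and 4.45 against 5.52, 5.69 and 5.97. Transcription factors and zinc finger proteins had 15 of 71 (21.1%), with 28 lower by 1 or more, led by the HuD-bound mmu_circRNA_017858 of Zfp609, with a WT level of 3.75 and a difference of 1.28, mmu_circRNA_18933 of Aff3, with 1.91 and 1.13, and mmu_circRNA_19529 of Tfdp2, a partner of E2F factors, with 1.67 and 1.31. RNA-binding and RNA-processing genes had 13 of 64 (20.3%), with 24 lower by 1 or more. The splicing regulator Rbm4 had mmu_circRNA_012214 and mmu_circRNA_19218, the latter reaching just past the end of the RefSeq gene, with differences of 1.40 and 1.39, and the helicase Ddx17 had mmu_circRNA_28808 with 1.76. Elavl2, a paralog of HuD in the Hu family, had mmu_circRNA_37140, which read 0.06, 0.07 and 0.18 in WT and 1.81, 1.91 and 1.56 in HuD KO.

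In the ubiquitin pathway 15 of 64 (23.4%) were members and 24 were 1 or more lower, with mmu_circRNA_015661, mmu_circRNA_19172 and mmu_circRNA_010404 of Ttc3 at the highest HuD KO levels of 5.05, 4.73 and 3.71. Adhesion and axon guidance genes had 14 of 65 (21.5%), Fgfr2 counted as listed, while 36 of the 65 were 1 or more lower. The atypical cadherin Fat3 had mmu_circRNA_012434, at 2.83, 3.00 and 2.67 in WT and 4.88, 5.08 and 4.73 in HuD KO, and Nlgn1, a postsynaptic adhesion molecule, had mmu_circRNA_35168 with a difference of 1.43. Membrane traffic genes had 8 of 46 (17.4%), with 21 lower by 1 or more. Neurobeachin, the product of Nbea, had mmu_circRNA_001579 and mmu_circRNA_016655, which share an end, with differences of 1.53 and 1.33, and Atg4c, a protease of autophagy, had mmu_circRNA_37227 with 2.17.

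Solute carriers and pumps had 6 of 38 (15.8%), with 19 lower by 1 or more and with mmu_circRNA_010639 of Slc8a3, a sodium-calcium exchanger, at a difference of 1.55, mmu_circRNA_45018 of Atp2c1, a calcium pump of the Golgi, at 1.42, and mmu_circRNA_37087 of Slc24a2, another sodium-calcium exchanger, at 1.44. Unnamed and uncharacterized loci had 10 of 54 (18.5%), while 41 of the 54 were 1 or more lower, the highest such share among the 15 lists. Members among them were mmu_circRNA_39744 of BC062895, with a difference of 2.17, and mmu_circRNA_19194 of Gm5815, with 1.23. mmu_circRNA_016934, listed under Gm22632 with a difference of 1.70, lies within the span of Snhg14, a long non-coding host of small nucleolar RNAs.

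Markers of cell types could be looked for only among host genes. Of 19 genes that mark striatal projection neurons, 5 had an annotated circRNA and only Foxp1 had a member. Of 9 interneuron genes, 2 had an annotated circRNA and Elavl2 had a member. Hosts that mark cortical projection neurons, astrocytes, oligodendrocytes and their precursors, microglia, and endothelial cells and pericytes had 0 members, with 0 to 2 annotated circRNAs per type. Lower by 1 or more were 2 of 9 annotated circRNAs of projection neuron hosts, 1 of 3 of interneuron hosts, both of the endothelial and pericyte host, the single one of the oligodendrocyte precursor host and 0 of the other types. In bulk tissue, more cells of a type and more RNA per cell cannot be told apart.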

How the data were processed

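Striatal RNA of 3 HuD KO and 3 WT mice was digested with RNase R, labelled with Cy3 and read on 1-colour Agilent circRNA arrays, 1 array per mouse. Per the file headers, the deposited spot intensities were extracted with Agilent Feature Extraction 11.0.1.1, which subtracted the background and detrended each array. The deposited tables of changed circRNAs hold normalized log2 values of each array by the authors. The labels' processing notes name limma, and the between-array method is not given in the sources used here. These tables also hold fold changes and p-values of the authors' own comparison, which were not used. Annotation and junction sequences came from these tables and from the list of HuD-bound circRNAs.

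From the processed intensities the log2 value minus the 75th percentile over the circRNA probes of the array was taken. Spots flagged as non-uniform or as population outliers were treated as missing, and control spots were left out. circRNAs with a mean WT value of 0 or more and a mean difference of 1 or more were kept. The members and the gene lists were chosen with earlier results of these data known, so no test was made on them. Named circRNAs were the 10 with the largest differences, the 10 with the highest WT levels, the 10 HuD-bound ones with the largest differences, those of hosts with 3 or more members the 3 with the highest HuD KO level of each host list and the 3 nearest each limit on either side. Named outside this rule, after their values were seen, were the circRNAs of Foxp1, Trim37, Magi1, Fam135a, Elavl2, Plekha5 and Fgfr2, the Nbea pair, mmu_circRNA_19745 of Rims1 and the probes with values from HuD KO 3 only that are not among the 10 largest differences.

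Other scalings, background corrections, limits and sets of arrays were tried as alternatives. The mean spot signal was not used here, so normexp was run on the median spot signal. Depth does not apply to arrays, whose number (3 per group) limits the precision, and the labels do not say more of the replicates than that they are separate mice. The rule was also run on simulated data whose planted differences were 1.5 or more. The 318 members with differences under 1.5 lie outside the range which that run covered. Python 3.11.15 with numpy 2.4.6 and pandas 2.3.3, and R 4.3.3 with limma 3.58.1 (normexp and quantile normalization), were used. Some items that the rule for named circRNAs would include are not reported here.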

Additional observations from a re-analysis of the deposited data

Results flagged for a closer look

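The array carries 14 circRNA control probes that stand outside the measured circRNAs. Their median difference of HuD KO minus WT was 0.66 on the log2 scale, and all 14 were higher in HuD KO. They are listed here because they are no part of the main values and read above their level on the WT arrays. Their means were 4.71, 4.62 and 4.24 on HuD KO 1, 2 and 3. On WT 1, 2 and 3 the means were 3.74, 3.70 and 3.82. These probes served above only as an alternative scale, with which the median difference of the 449 was 0.53. Their part in the differences described above was not tested.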

How the results depend on the processing

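The number of circRNAs that met the limits (449, of which 444 did not overlap between groups) depended on the scale. It was 687 (680 without overlap) after median scaling, 1214 (1204) with no scaling, 54 (49) with the circRNA control probes as the scale, 246 (240) after normexp and quantile normalization and 291 (285) after quantile normalization of uncorrected intensities. The median difference of the 449, 1.30, became 1.5, 1.83, 0.53, 1.03 and 1.08 in that order, and 1.11 after quantile normalization of the processed intensities, where 305 met the limits. With a limit of 1.5-fold there were 1016 (985), with a median of 0.94. With 4-fold there were 28 (23), with a median of 2.23, and with a WT level of 1 or more 263 (258). Leaving out 1 array gave 416 to 516 circRNAs, and the median of the 449 was then 1.26 to 1.39. With flagged spots kept, ASCRP4007459 turned to -0.013, the only sign change among 2460 values of named circRNAs recomputed, of which 1835 moved by less than the replicate spread. The HuD-bound share, 13.1%, was 18.5% (44 of 238) with each host gene counted once, by its member brightest in WT. That count leaves out the members without a host symbol, which hold none of the 59 on the list. Among the 338 annotated members, 59 were on the list, so the 2 shares are not over the same set. The excess of the 13.1%, 3.92 percentage points, was 8.52 against all circRNA probes. Chosen after seeing the data were HuD KO 3 alone against WT (396 circRNAs, and a median of 1.17 for the 449), only probes with 6 values (444) and near-identical circles counted once (13.2% HuD-bound). The cause of these shifts was not tested. No paired analysis was possible because the values come from no test and the replicate numbers link no mice.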
